A study of Homo sapiens with 12 samples.

Results

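UM-SCC-047 and UPCI-SCC-090 are cell lines grown from HPV+ head and neck squamous cell carcinomas (HNSCC), and here they were compared with each other in the absence of a drug. Of the 12 RNA-seq libraries of the series, 6 enter the comparison, namely the 3 libraries of UM-SCC-047 and the 3 of UPCI-SCC-090 that had received 0.1% DMSO for 72 h. DMSO is the solvent of the BET bromodomain inhibitor JQ1, which the remaining 6 libraries had received at 500 nM for the same time. Both lines were grown in high-glucose DMEM with 10% fetal bovine serum, and the labels name no engineered allele, knockdown or transgene. The genotypes of the lines were not compared. The question is what distinguishes the RNA of the lines before any treatment, in lineage, keratins, matrix, signaling, immune genes and metabolism. Each group is a single line, so that the effects of the donor, the tumor, the passage history and the culture cannot be told apart. The labels do not say whether the 3 libraries of a line came from separate cultures, and p-values then measure only the spread between these libraries, which may be technical. RNA was measured in bulk, where fewer cells of a kind and less RNA per cell cannot be told apart.

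Squamous epithelium keeps its dividing cells in a basal layer, where the transcription factor p63 and the keratins KRT5 and KRT14 are found, and its upper layers change keratins and build a cornified envelope. Simple epithelium is instead marked by KRT8, KRT18 and KRT7. Malignant squamous cells can hold both kinds of keratin as well as genes of mesenchymal cells. In HPV+ tumors the viral oncoproteins inactivate RB, and the viral genes interfere with interferon signaling and antigen presentation. Such functions were grouped into 68 lists of genes, and the lists described here are given by how many of their members were higher or lower in UPCI-SCC-090.

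The libraries held 20349275 to 27970593 estimated counts in UM-SCC-047 and 22124400 to 29461362 in UPCI-SCC-090. Levels are given in CPM, the count of a gene scaled to a library of fixed size, as the mean ± SD over 3 libraries where an error is shown, and differences as log2 fold changes of UPCI-SCC-090 over UM-SCC-047, so that negative values mark genes lower in UPCI-SCC-090. Where a pair of levels stands without the names of the lines, the first is that of UM-SCC-047. Libraries of the same line correlated at 0.932 to 0.993 across genes, and libraries of different lines at 0.689 to 0.727. The spread between replicates was larger in UPCI-SCC-090 (biological coefficient of variation 40.8%) than in UM-SCC-047 (15.5%). Counts of UPCI-SCC-090 replicates 1 and 2 followed the GC content of the genes in opposite ways, with slopes of −0.44 and 0.49 log2 units per 10 points of GC against −0.11 to 0.12 in the other 4 libraries. Where leaving out 1 library ended the call of a gene described as higher or lower or moved a printed count by more than 1.5 times, the value without it is given beside the result. Genes that did not pass but gained a call in this way are counted in the closing section only. Markers of other cell types were mostly below the level for testing, and THY1, CD3D, MS4A1, TYROBP, SOX10 and MYOD1 had 0 counts in both lines. Of 12 neural and neuroendocrine markers 3 were tested and all were higher, with summed levels of 42.1 to 54.5 CPM in UM-SCC-047 beside 104 to 176 CPM in UPCI-SCC-090, most of it the tubulin TUBB3 (45.5 and 140.0 CPM). The 10 muscle markers summed to 140 to 164 CPM in UM-SCC-047 beside 24.3 to 36.2 CPM in UPCI-SCC-090, most of it the troponin TNNT1 (138 and 26.5 CPM). The 10 fibroblast markers summed to 15.2 to 18.3 and 22.4 to 30.5 CPM and the 9 endothelial markers found in the table to 12.7 to 13.7 and 2.95 to 3.26 CPM. Summed levels of the 12 leukocyte markers were 50.9 to 58.9 CPM in UM-SCC-047 beside 10.2 to 13.5 CPM in UPCI-SCC-090, most of it CD68 (43.7 and 5.67 CPM). The part of such cells in the results was not tested.

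The lines differed in a large part of the transcriptome. Of 14108 genes tested with edgeR's quasi-likelihood test at a Benjamini-Hochberg adjusted p under 0.05, 3207 (22.7%) were higher in UPCI-SCC-090 and 3571 (25.3%) were lower. Differences of more than 2-fold made up 2314 (16.4%) of the higher and 2918 (20.7%) of the lower genes. Between the lines the 6 libraries did not overlap for 26.1% of the genes tested with UPCI-SCC-090 above, and for 31.6% with UPCI-SCC-090 below. The median log2 fold change of all genes tested was −0.01, and its quartiles were −0.84 and 0.73. These shares are the background against which the counts of each list are to be read.

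Transcription factors of the squamous lineage were split between the lines, with 9 higher and 5 lower of 23 tested, that is 39.1% higher and 21.7% lower. Factors shared by both lines included TP63, the master regulator of stratified epithelium, which was read at 474, 347 and 549 CPM in the UM-SCC-047 libraries and 1008, 419 and 533 CPM in the UPCI-SCC-090 libraries. The libraries of the lines overlapped and TP63 did not pass the test (log2 fold change 0.52 ± 0.34, edgeR adjusted p = 0.25). SOX2, a factor of the basal stem cells of the foregut that is amplified in squamous carcinomas, showed the widest gap of the list. Its level was 0.491, 0.63 and 0.398 CPM in the UM-SCC-047 libraries and 513, 254 and 375 CPM in the UPCI-SCC-090 libraries, and the groups stood far apart (log2 fold change 9.54 ± 0.41, edgeR adjusted p = 5.9e-06; ENSG00000181449, chromosome 3 from 181429713 to 181432224 of GRCh37). FOXE1, a forkhead factor of the thyroid and oral epithelium, was read at 32.2, 31.8 and 23.1 CPM in the UM-SCC-047 libraries and 2946, 3919 and 3326 CPM in the UPCI-SCC-090 libraries. All UPCI-SCC-090 libraries lay above all of UM-SCC-047 (log2 fold change 6.87 ± 0.25, edgeR adjusted p = 5.8e-06). ZNF750, which acts below p63 in terminal differentiation, was near the limit of reading in UM-SCC-047, with 0.0867 and 7.21 CPM. PITX1, a homeobox factor of the oral epithelium, was higher as well, at 26 ± 4.15 CPM in UM-SCC-047 against 289 ± 80.0 CPM in UPCI-SCC-090. The p63 relative TP73 was higher by a log2 fold change of 1.48 ± 0.23, at 22.1 and 61.7 CPM and an edgeR adjusted p of 0.0014.

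In the opposite direction, the epithelial ETS factors ELF3 and EHF were lower in UPCI-SCC-090. ELF3 was read at 666, 751 and 628 CPM in the UM-SCC-047 libraries and 32.7, 46.3 and 43.3 CPM in the UPCI-SCC-090 libraries, with no overlap (log2 fold change −4.06 ± 0.20, edgeR adjusted p = 9.7e-06). Its relative EHF fell from 56.4 to 1.84 CPM between the lines. BNC1, a zinc finger protein of basal keratinocytes, and OVOL1, a repressor that promotes epidermal differentiation, were also lower, with log2 fold changes of −3.20 ± 0.39 and −1.72 ± 0.23. TFAP2A was lower by a smaller amount (−0.60 ± 0.20, edgeR adjusted p = 0.037), whereas its relative TFAP2C (−0.28), the grainyhead factors GRHL1 (0.07) and GRHL2 (0.21) and the Krüppel-like factors KLF4 (−0.43) and KLF5 (−0.58) did not pass. TFAP2A itself kept its call only without UPCI-SCC-090 replicate 2, and leaving out another library gave edgeR adjusted p = 0.085 to 0.35. The lines therefore had TP63, GRHL2 and KLF5 at levels that the test did not separate. SOX2 and FOXE1 stood higher in UPCI-SCC-090, and ELF3 and EHF higher in UM-SCC-047.

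**Figure D1:**
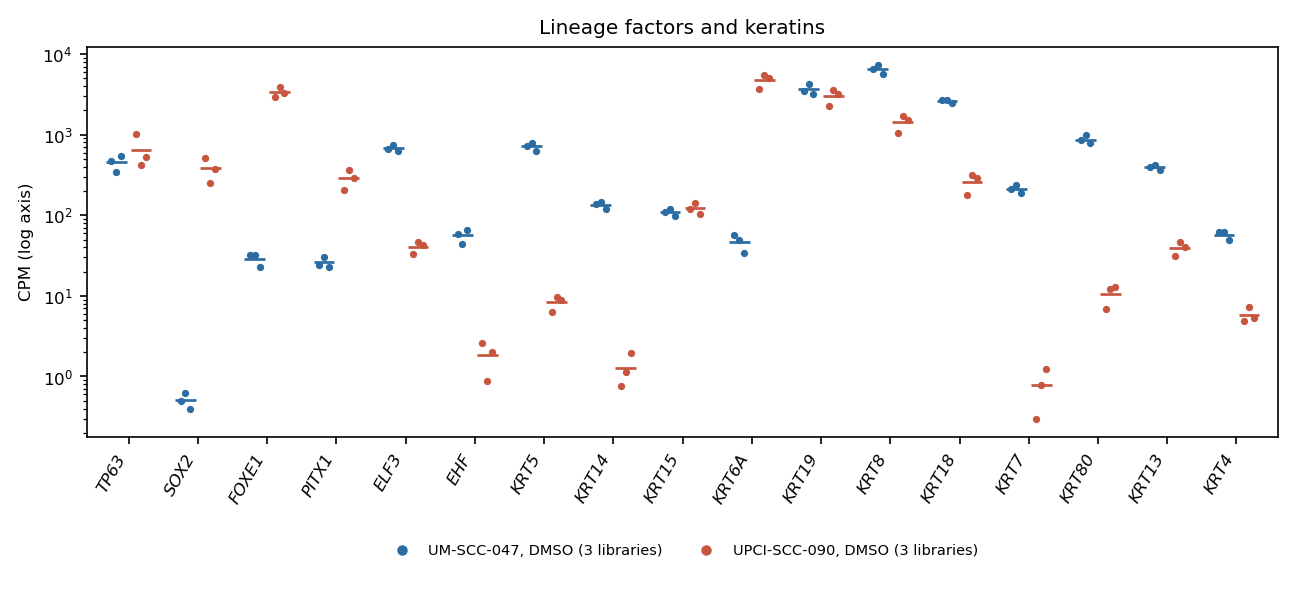
Levels of lineage factors and keratins in each of the 6 libraries, in CPM on a log axis, with UM-SCC-047 and UPCI-SCC-090 in different colors and the mean of each line as a bar. SOX2, FOXE1 and KRT6A stand higher in all 3 UPCI-SCC-090 libraries and KRT5, KRT14, KRT7 and KRT80 lower, while the libraries of the lines overlap for TP63, KRT15 and KRT19.

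Keratins were divided into groups from general knowledge, and the directions of the groups depend on which keratins were placed in each. The group of stressed or activated epithelium held only KRT6A, KRT6B, KRT6C and KRT16. The keratins of basal cells had 0 higher and 3 lower of 4 tested, those of stressed or activated epithelium 4 higher and 0 lower of 4 tested, those of mucosa and epidermal differentiation 0 higher and 4 lower of 5 tested, and those of simple epithelium 0 higher and 6 lower of 7 tested. Without UPCI-SCC-090 replicate 1 the mucosal list had 1 higher member. KRT5, the basal partner of KRT14, was read at 726, 793 and 621 CPM in the UM-SCC-047 libraries and 6.3, 9.72 and 8.88 CPM in the UPCI-SCC-090 libraries. KRT14 was read at 139, 145 and 120.1 CPM in the UM-SCC-047 libraries and 0.77, 1.13 and 1.97 CPM in the UPCI-SCC-090 libraries. Both were lower in UPCI-SCC-090 without overlap (log2 fold changes −6.43 ± 0.26 and −6.69 ± 0.39, edgeR adjusted p = 5.8e-06 and 1.4e-05). KRT15 was the 1 member of the 4 basal keratins that did not pass (108 and 123 CPM, log2 fold change 0.18 ± 0.18). KRT6A, a keratin of wounded and hyperproliferative epithelium, showed the reverse pattern at 56.4, 49.2 and 34.3 CPM in the UM-SCC-047 libraries and 3659.6, 5444 and 5099 CPM in the UPCI-SCC-090 libraries. All UPCI-SCC-090 libraries lay above (log2 fold change 6.67 ± 0.31, edgeR adjusted p = 7.9e-06), and its close relatives KRT6B (0.875 and 14.8 CPM) and KRT6C (0.0252 and 9.08 CPM) followed it, with the caveat that reads of such near-identical genes are divided by estimate. The partner of KRT6, KRT16, was higher by a log2 fold change of 0.84 ± 0.24 and lost the call without UM-SCC-047 replicate 1, 2 or 3 or UPCI-SCC-090 replicate 3 (edgeR adjusted p = 0.1, 0.066, 0.12 and 0.078).

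Simple keratins were lower in UPCI-SCC-090 apart from KRT19, whose libraries overlapped (3658 and 3008 CPM, log2 fold change −0.28 ± 0.21). KRT7, a keratin of ductal and glandular epithelium, was read at 213, 235 and 191 CPM in the UM-SCC-047 libraries and 0.293, 0.781 and 1.25 CPM in the UPCI-SCC-090 libraries. With 63 counts in all over the 3 libraries of UPCI-SCC-090 it was close to absent there (log2 fold change −8.08 ± 0.49, edgeR adjusted p = 1.6e-05). KRT8 and its partner KRT18 stayed abundant but lower, with log2 fold changes of −2.18 ± 0.23 and −3.32 ± 0.25. KRT80, counted with the simple keratins although it is a filament protein of differentiated epithelium, was read at 871 ± 104 CPM in UM-SCC-047 against 10.7 ± 3.33 CPM in UPCI-SCC-090. On a scale per kilobase of exon, which allows genes to be compared, the leading keratins of UM-SCC-047 were KRT19, KRT8 and KRT18 (1566 and 1288, 944 and 208 and 852 and 85.4 CPM per kb), whereas those of UPCI-SCC-090 were KRT6A (15.9 and 1618) and KRT19. KRT13 and KRT4, the keratin pair of the mucosal surface, were lower at 396 and 39.6 CPM and 57.6 and 5.79 CPM (log2 fold changes −3.32 ± 0.21 and −3.32 ± 0.25). In the JQ1 libraries the order of this pair was the opposite, with 16.2 and 840.4 CPM and 4.38 and 238 CPM (log2 fold changes 5.70 ± 0.38 and 5.76 ± 0.50, edgeR adjusted p = 3.8e-05 and 8.5e-05). KRT15 was higher there too, at 51.7 and 1142 CPM (log2 fold change 4.47 ± 0.37, edgeR adjusted p = 7.4e-05).

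Of the 20 markers of squamous epithelium used to check the labels, all were tested, and their summed levels were 8979 to 10733 CPM in UM-SCC-047 beside 13895 to 17362 CPM in UPCI-SCC-090. All of them were read in both lines. TP63, SFN, CDH1 and LAMB3 did not pass the test, whereas the basal keratins KRT5 and KRT14 were among the lower markers. Among the 20 markers 8 were higher and 4 lower, and the first count became 5 without UM-SCC-047 replicate 1 and 5 without replicate 3. Besides KRT6A the higher markers included CLCA2, a membrane protein of stratified epithelium, at 0.396 and 27.9 CPM (log2 fold change 6.13 ± 0.70), and S100A2, a target of p63, at 235 and 1215 CPM (log2 fold change 2.37 ± 0.29). EPCAM, an adhesion molecule of epithelial cells, did not pass (123 and 209 CPM, log2 fold change 0.77 ± 0.28).

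Components of desmosomes, the junctions that anchor keratin filaments, had 4 higher and 4 lower of 11 tested. Each count was 36.4% of the list, beside 22.7% higher and 25.3% lower of all genes tested. Plakophilin PKP1 was read at 117, 127 and 106 CPM in the UM-SCC-047 libraries and 857, 1190.3 and 964 CPM in the UPCI-SCC-090 libraries, and the desmosomal cadherin DSC3 at 31.1, 16.8 and 35.9 CPM in the UM-SCC-047 libraries and 397, 73.4 and 153 CPM in the UPCI-SCC-090 libraries. Both were higher in every UPCI-SCC-090 library (log2 fold changes 3.10 ± 0.19 and 2.90 ± 0.63). DSG3, the cadherin that partners DSC3 in basal cells, was lower instead, at 56.1 ± 23.5 CPM in UM-SCC-047 against 7.17 ± 5.07 CPM in UPCI-SCC-090 (log2 fold change −2.97 ± 0.64), and so was PKP2 at 80.5 and 27.9 CPM. Counts for the list rested on single libraries: the 4 higher members became 2, 2 or 2 without UM-SCC-047 replicate 1, 2 or 3, and the 4 lower ones 2 without UPCI-SCC-090 replicate 3.

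Genes of the cornified envelope and of terminal differentiation were mostly lower, with 3 higher and 12 lower of 17 tested (median log2 fold change −2.71). IVL (involucrin), a scaffold of the envelope, was read at 9.4, 9.54 and 9.7 CPM in the UM-SCC-047 libraries and 0.147, 0.0868 and 0.0339 CPM in the UPCI-SCC-090 libraries, so that all 3 libraries of UPCI-SCC-090 lay near 0. SCEL (20.8 and 0.331 CPM), CDSN (6.73 and 0.112 CPM) and S100A9 (4.18 and 0.0706 CPM) showed the same contrast. PPL, which links keratins to the envelope, was lower by −2.71 ± 0.22 and TGM1, the crosslinking transglutaminase, by −2.24 ± 0.28. Of the higher members CALML3, a calmodulin-like protein of epithelium, was the most abundant at 66.7 ± 8.67 CPM in UM-SCC-047 against 189 ± 49.1 CPM in UPCI-SCC-090. Tight junction genes had 2 higher and 8 lower of 17 tested. The claudin CLDN1 was read at 111 ± 20.3 CPM in UM-SCC-047 against 10.1 ± 4.93 CPM in UPCI-SCC-090 and TJP3 at 16.5 ± 2.11 CPM in UM-SCC-047 against 0.312 ± 0.205 CPM in UPCI-SCC-090, both lower, whereas the junctional adhesion molecule F11R was higher (log2 fold change 1.73 ± 0.20).

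Genes that define the epithelial state had 2 higher and 2 lower of 17 tested. CDH1, which encodes E-cadherin, was read at 879, 923 and 809 CPM in the UM-SCC-047 libraries and 971, 975 and 902 CPM in the UPCI-SCC-090 libraries, with overlapping libraries and a log2 fold change of 0.13 ± 0.14. The splicing factors ESRP1 (0.25) and ESRP2 (0.25), RAB25 (0.34) and the protease ST14 (0.60) did not pass either. Without UPCI-SCC-090 replicate 1, however, 13 members were higher.

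Genes of the mesenchymal state did not move as a block, with 5 higher and 14 lower of 21 tested. VIM, which encodes the intermediate filament vimentin, was read at 53.9, 57.7 and 43.5 CPM in the UM-SCC-047 libraries and 739.6, 845 and 786 CPM in the UPCI-SCC-090 libraries, and all UPCI-SCC-090 libraries were above all of UM-SCC-047 (log2 fold change 3.93 ± 0.18, edgeR adjusted p = 8e-06). FBN1 (fibrillin) and TNC (tenascin C) were also higher, at 51.5 and 671 CPM and 132 and 1430.2 CPM, as was CDH2 (N-cadherin) at 87.9 and 257 CPM. Yet FN1, which encodes fibronectin, was read at 2171, 2146 and 1977 CPM in the UM-SCC-047 libraries and 42.3, 46.3 and 44 CPM in the UPCI-SCC-090 libraries, and was lower (log2 fold change −5.57 ± 0.17, edgeR adjusted p = 5.8e-06). SPARC, a collagen-binding matricellular protein, was read at 1146, 1216 and 1072 CPM in the UM-SCC-047 libraries and 0.806, 0.564 and 4.34 CPM in the UPCI-SCC-090 libraries and was close to absent in UPCI-SCC-090 (log2 fold change −9.20 ± 0.85). MSN (moesin), which ties the membrane to actin, fell from 653 to 0.645 CPM and TGFBI, a secreted adhesion protein, from 990.5 to 3.37 CPM. The transcription factors of epithelial-mesenchymal transition SNAI2 and TWIST1 were lower (log2 fold changes −1.64 ± 0.33 and −3.17 ± 0.25). ACTA2, smooth muscle actin, had 0 counts in UPCI-SCC-090 and 17.1 CPM in UM-SCC-047, at least 454-fold lower.

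**Figure D2:**
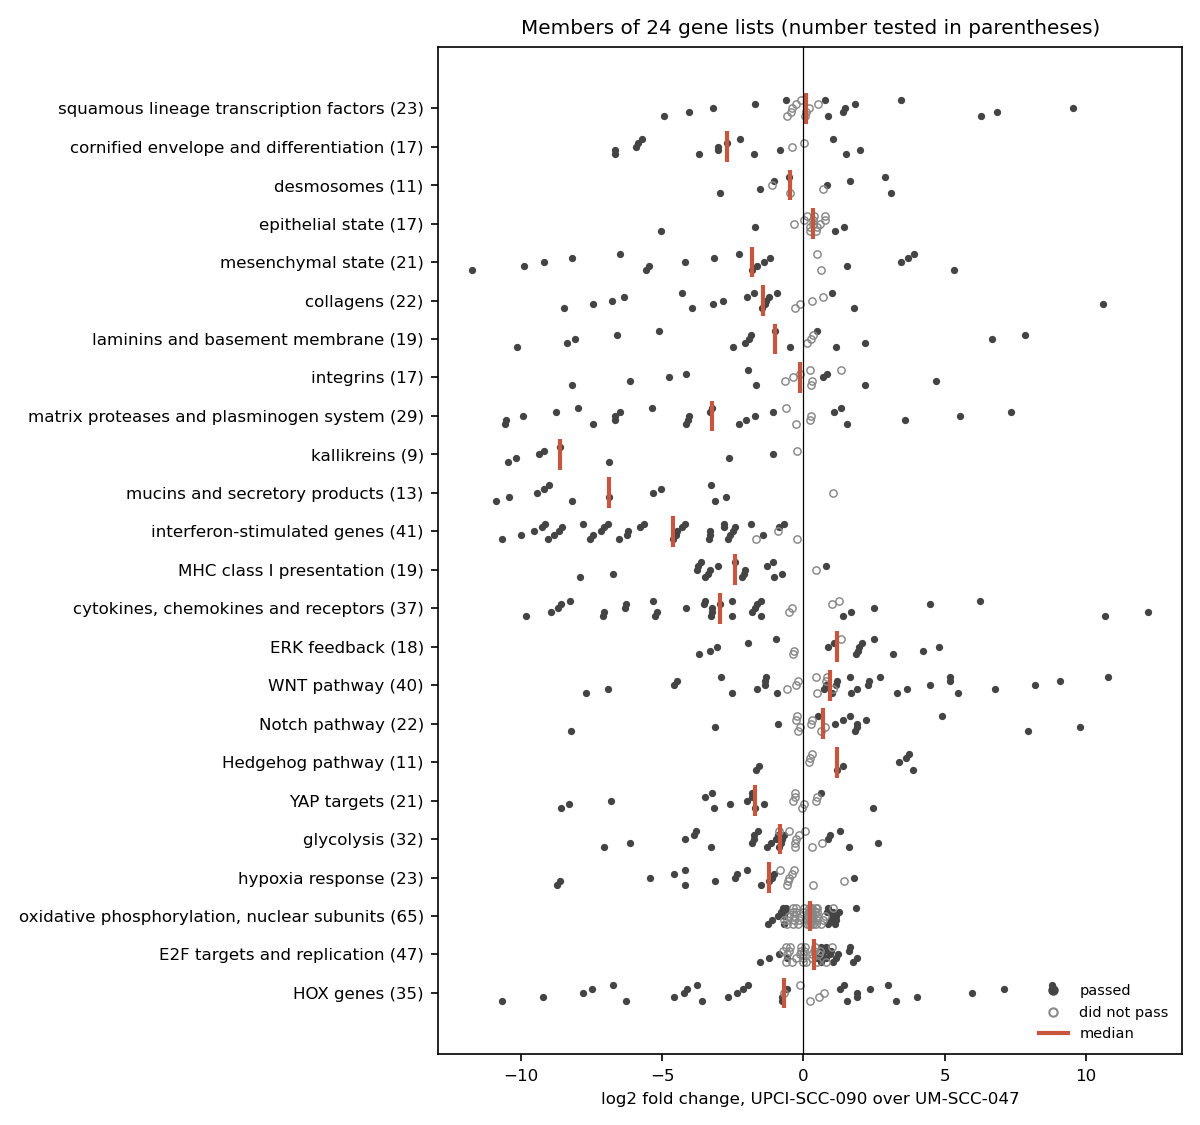
Log2 fold change of UPCI-SCC-090 over UM-SCC-047 without drug (horizontal axis) for each tested member of 24 gene lists, 1 point per gene, filled where the gene passed the edgeR test at an adjusted p under 0.05, with the list median as a vertical tick. Fitted values of genes with 0 counts in a line depend on the prior count of the fit. The interferon-stimulated genes, kallikreins and mucins lie to the left of 0, and the WNT, Notch and Hedgehog lists have medians to the right of 0.

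Matrix genes were lower more often than higher. Collagens had 3 higher and 15 lower of 22 tested (median log2 fold change −1.41), laminins and basement membrane genes 5 higher and 11 lower of 19 tested (−1.01), and matricellular proteins and proteoglycans 12 higher and 17 lower of 33 tested (−1.02). The fibril-associated collagen COL12A1 was read at 471, 337 and 510.2 CPM in the UM-SCC-047 libraries and 1.72, 0.564 and 1.32 CPM in the UPCI-SCC-090 libraries, and COL5A1, a regulator of fibril assembly, at 367, 438 and 369.9 CPM in the UM-SCC-047 libraries and 2.27, 2.52 and 1.97 CPM in the UPCI-SCC-090 libraries. Both were nearly confined to UM-SCC-047 (log2 fold changes −8.49 ± 0.46 and −7.44 ± 0.22). COL15A1, a collagen of basement membrane zones, was the opposite case at 0.151, 0.045 and 0.0497 CPM in the UM-SCC-047 libraries and 129.6, 162 and 135 CPM in the UPCI-SCC-090 libraries (log2 fold change 10.60 ± 0.38, edgeR adjusted p = 5.8e-06). COL17A1, the hemidesmosomal collagen, and COL7A1, the anchoring fibril, did not pass (0.31 and −0.11). The higher collagens were 3 in number and 5 without UPCI-SCC-090 replicate 1.

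Of the chains of laminin-332, a laminin of the epithelial basement membrane, LAMA3 was lower (log2 fold change −2.07 ± 0.29) and LAMB3 was read at 627 and 759 CPM without passing. LAMB1, the beta chain of mesenchymal basement membranes, was read at 386, 343 and 416 CPM in the UM-SCC-047 libraries and 5.13, 2.6 and 4.03 CPM in the UPCI-SCC-090 libraries, a log2 fold change of −6.60 ± 0.31. FRAS1 and FREM2, which form a complex at the skin basement membrane, were both higher, at 101 and 461 CPM and 0.492 and 50.5 CPM. Without UM-SCC-047 replicate 1 or 2, 3 members of this list remained above the threshold in the higher direction rather than 5. Integrins had 4 higher and 6 lower of 17 tested. ITGA5, the fibronectin receptor, was read at 241, 266 and 212 CPM in the UM-SCC-047 libraries and 2.2, 3.73 and 4.2 CPM in the UPCI-SCC-090 libraries and ITGB6 of the αvβ6 receptor at 62 ± 9.24 CPM in UM-SCC-047 against 2.3 ± 1.54 CPM in UPCI-SCC-090, both lower, whereas the collagen receptor ITGA1 was higher at 1.43 ± 0.263 CPM in UM-SCC-047 against 37.3 ± 23.4 CPM in UPCI-SCC-090. ITGA3, ITGAV and ITGB1 did not pass (0.26, 0.22 and −0.10), and without UM-SCC-047 replicate 1 or 3 the 4 higher integrins were 2.

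Within the list of matricellular proteins and proteoglycans, some proteoglycans of the cell surface were higher in UPCI-SCC-090. GPC3, a glypican that holds growth factors and is a fetal antigen, was read at 2.19, 0.36 and 0.0497 CPM in the UM-SCC-047 libraries and 720.1, 1018 and 925 CPM in the UPCI-SCC-090 libraries (log2 fold change 9.92 ± 0.97, edgeR adjusted p = 1.3e-04). GPC4 (1.73 and 208 CPM), SDC2 (0.85 and 57.8 CPM) and SDC1 (298 and 1184 CPM) were higher too. VCAN, the large chondroitin sulfate proteoglycan versican, had 2 counts in UM-SCC-047 beside 31.9 CPM in UPCI-SCC-090. THBS1, an activator of latent TGF-beta, was by contrast read at 499.9, 437 and 441 CPM in the UM-SCC-047 libraries and 3.92, 2.04 and 3.15 CPM in the UPCI-SCC-090 libraries (log2 fold change −7.23 ± 0.30), and its relative THBS2 at 27.4 and 0.0357 CPM.

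Proteases and inhibitors of the matrix had 6 higher and 19 lower of 29 tested (median log2 fold change −3.24). Activators of plasminogen were lower, since the urokinase PLAU was read at 196, 208 and 190.4 CPM in the UM-SCC-047 libraries and 1.5, 2.04 and 2.31 CPM in the UPCI-SCC-090 libraries and the tissue activator PLAT at 579.7, 591 and 505 CPM in the UM-SCC-047 libraries and 0.916, 1.04 and 1.9 CPM in the UPCI-SCC-090 libraries. TIMP3, a matrix-bound inhibitor of metalloproteases, fell from 954 to 0.935 CPM, and TIMP2 was lower by a log2 fold change of −3.24 ± 0.19. The metalloproteases MMP10, MMP11 and MMP14 were higher, at 0.117 and 19.8 CPM, 1.78 and 84.2 CPM and 419 and 1045 CPM. Kallikreins, serine proteases encoded side by side on chromosome 19 that loosen cell contacts in the epidermis, had 0 higher and 8 lower of 9 tested. KLK5 was read at 535, 612 and 499 CPM in the UM-SCC-047 libraries and 0.0367, 0.0868 and 2.24 CPM in the UPCI-SCC-090 libraries (log2 fold change −9.38 ± 1.16, edgeR adjusted p = 4.3e-04), and KLK10 at 127 and 0.309 CPM. Over the 9 kallikreins the median log2 fold change was −8.61, and −7.31 with members at 0 counts set to their bound. Clade B serpins had 2 higher and 5 lower of 8 tested. SERPINB11 had 0 counts in UM-SCC-047 beside 28.5 CPM in UPCI-SCC-090, SERPINB13 was read at 0.715 and 68.9 CPM, and SERPINB6, an inhibitor of granule proteases, was lower (log2 fold change −4.70 ± 0.22).

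Mucins and secretory products of glandular epithelium had 0 higher and 12 lower of 13 tested, with 1 higher without any 1 of the UM-SCC-047 libraries and 2 without UPCI-SCC-090 replicate 2. MUC4 was read at 289.8, 182 and 307 CPM in the UM-SCC-047 libraries and 0.99, 0.955 and 0.712 CPM in the UPCI-SCC-090 libraries and MUC16, the CA125 antigen, at 189, 130.2 and 204 CPM in the UM-SCC-047 libraries and 0, 0.0434 and 0.203 CPM in the UPCI-SCC-090 libraries. Both membrane mucins were thus near 0 in UPCI-SCC-090 (log2 fold changes −8.19 ± 0.33 and −10.89 ± 0.64). LCN2, an iron-binding protein of neutrophils and inflamed epithelium, fell from 125 to 0.08 CPM, and the antiprotease SLPI from 49.1 to 0.408 CPM. AGR2, a disulfide isomerase of secretory cells, did not pass and had 14 and 28.7 CPM. The median log2 fold change of the list was −6.89, or −6.14 with members at 0 counts set to their bound.

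Interferon-stimulated genes were lower in UPCI-SCC-090 almost without exception. Type I interferon acts through a protein complex that holds STAT2 and IRF9 and binds a short repeated sequence before its target genes. Of 41 members tested, 0 were higher and 38 lower in UPCI-SCC-090, a share of 92.7% lower beside 25.3% of all genes tested, and the median log2 fold change was −4.61. STAT2, IFIT5 and RIGI were the members that did not pass (−0.24, −0.91 and −1.69), and IRF9 lost its call without UPCI-SCC-090 replicate 3 (edgeR adjusted p = 0.081). The promoters of 3 strongly lower members are printed because each holds the binding sequence searched for, the letters GAAA, any 2 bases and GAAA again on either strand, shown in capitals. They run from 250 bases before to 50 after the RefSeq start of the gene on GRCh38.p14.
EPSTI1 (chr13:42992192-42992491, minus strand): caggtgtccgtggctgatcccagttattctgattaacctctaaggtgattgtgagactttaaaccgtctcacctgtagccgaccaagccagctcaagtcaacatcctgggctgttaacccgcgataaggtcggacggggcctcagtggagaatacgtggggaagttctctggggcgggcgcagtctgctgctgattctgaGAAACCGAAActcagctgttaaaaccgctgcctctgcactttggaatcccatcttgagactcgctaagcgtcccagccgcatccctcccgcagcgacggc
IFI44 (chr1:78649539-78649838, plus strand): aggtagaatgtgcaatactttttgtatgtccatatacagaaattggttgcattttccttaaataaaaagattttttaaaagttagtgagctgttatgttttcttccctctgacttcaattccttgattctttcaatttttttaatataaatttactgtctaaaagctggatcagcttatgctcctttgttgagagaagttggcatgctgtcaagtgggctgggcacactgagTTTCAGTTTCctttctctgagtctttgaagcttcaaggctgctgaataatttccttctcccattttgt
IFIT3 (chr10:89327747-89328046, plus strand): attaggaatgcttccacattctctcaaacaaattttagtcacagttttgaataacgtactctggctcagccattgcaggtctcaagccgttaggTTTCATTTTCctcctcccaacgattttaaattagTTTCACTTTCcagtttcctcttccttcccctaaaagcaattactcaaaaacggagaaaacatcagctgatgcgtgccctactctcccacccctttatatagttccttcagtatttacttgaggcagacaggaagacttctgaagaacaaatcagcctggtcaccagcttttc
The match lay 50 bases before the start in EPSTI1 and 18 before it in IFI44, and IFIT3 held 2 matches, at 156 and 122 bases. Among tested interferon-stimulated genes with a RefSeq promoter, 20 of 31 (64.5%) held a match, against 292 of 11049 (2.64%) of all tested genes and 996 of 27305 (3.65%) of all promoters. Over all genes with a promoter, 105 of 2652 (3.96%) of those lower in UPCI-SCC-090 and 49 of 2486 (1.97%) of those higher held one. The lower genes include the lower interferon-stimulated genes, of which 19 of 28 held a match. The 2 shares are therefore not independent of that list. These are matches of letters and were not tested for binding.

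EPSTI1, an interferon-induced gene of epithelial and stromal cells, was read at 59.5, 50.5 and 60.7 CPM in the UM-SCC-047 libraries and 0, 0.0868 and 0.0678 CPM in the UPCI-SCC-090 libraries. IFI44, a cytoplasmic interferon-induced protein, was read at 60.6, 69 and 73.2 CPM in the UM-SCC-047 libraries and 0.147, 0 and 0.102 CPM in the UPCI-SCC-090 libraries, and IFIT3, which binds viral RNA with its partner IFIT1, at 95.5, 54.4 and 107 CPM in the UM-SCC-047 libraries and 0.0367, 0 and 0.339 CPM in the UPCI-SCC-090 libraries. In each case all UM-SCC-047 libraries lay far above all UPCI-SCC-090 libraries. OASL, a relative of the 2′-5′ oligoadenylate synthetases, had the largest difference, at 541, 581 and 467 CPM in the UM-SCC-047 libraries and 0.0733, 0.13 and 0.712 CPM in the UPCI-SCC-090 libraries (log2 fold change −10.68 ± 0.67, edgeR adjusted p = 1.8e-05). The antiviral GTPase MX1 was read at 239, 259 and 245 CPM in the UM-SCC-047 libraries and 0.99, 1.52 and 1.76 CPM in the UPCI-SCC-090 libraries and the membrane protein IFITM3, which blocks virus entry, at 205, 262 and 213 CPM in the UM-SCC-047 libraries and 0.293, 0.13 and 0.712 CPM in the UPCI-SCC-090 libraries. Log2 fold changes were −7.44 ± 0.28 and −9.16 ± 0.52. Upstream components were lower by less: the factor IRF7 at 30.2 and 4.94 CPM (log2 fold change −2.61 ± 0.25) and the RNA sensor IFIH1 at 15.5 and 2.87 CPM. The kinase substrate STAT2 stood at 81.1 and 68.7 CPM with overlapping libraries.

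**Figure D3:**
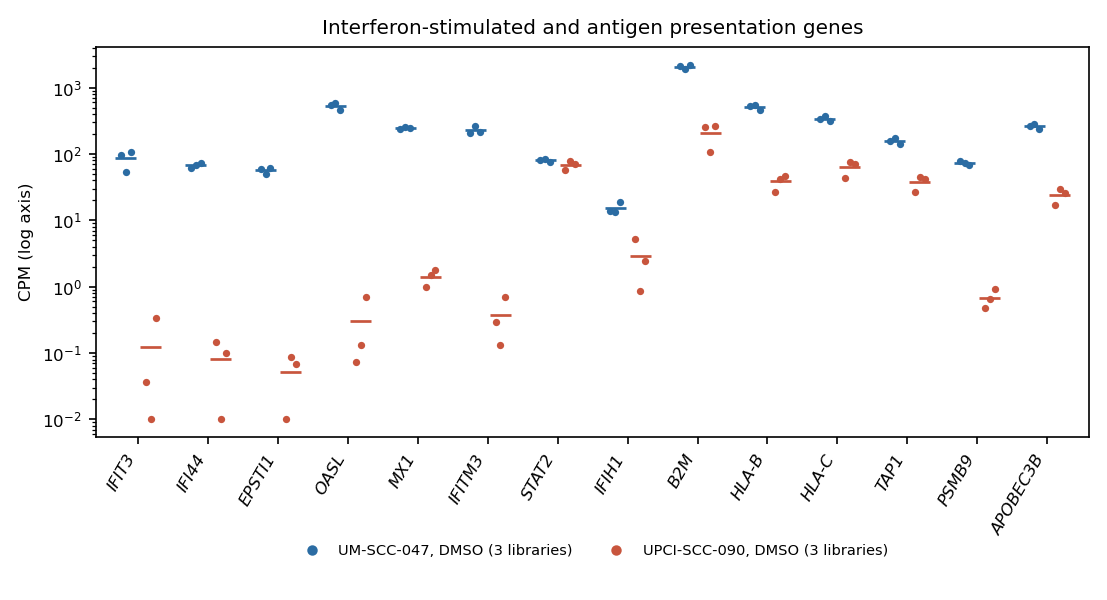
CPM (log axis, with values under 0.01 drawn at 0.01) of interferon-stimulated and antigen presentation genes in each of the 6 libraries, colored by line, with the mean of each line as a bar. For IFIT3, IFI44, EPSTI1, OASL, MX1 and IFITM3 the UPCI-SCC-090 libraries lie far below those of UM-SCC-047, for B2M and HLA-B they lie below by less, and for STAT2 the libraries overlap.

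Antigen presentation followed the same direction. The MHC class I list had 1 higher and 17 lower of 19 tested (median log2 fold change −2.42), and 2 higher without UPCI-SCC-090 replicate 1. B2M, the light chain of all class I molecules, was read at 2103, 1893 and 2217 CPM in the UM-SCC-047 libraries and 258, 108 and 260.2 CPM in the UPCI-SCC-090 libraries (log2 fold change −3.31 ± 0.35, edgeR adjusted p = 2.1e-04). Among heavy chains the log2 fold changes were −2.42 ± 0.24 for HLA-C and −3.74 ± 0.25 for HLA-B, although reads of these similar and variable genes are divided by estimate. The immunoproteasome subunit PSMB9 was read at 72.9 ± 5.11 CPM in UM-SCC-047 against 0.681 ± 0.221 CPM in UPCI-SCC-090, the peptide transporter TAP1 at 157 ± 17.2 CPM in UM-SCC-047 against 37.5 ± 9.4 CPM in UPCI-SCC-090 and the trimming peptidase ERAP2 at 72.9 ± 29.8 CPM in UM-SCC-047 against 0.289 ± 0.195 CPM in UPCI-SCC-090. PDIA3, a chaperone of the loading complex, was higher (640.3 and 1118 CPM). Class II genes were low in both lines, with 0 higher and 5 lower of 5 tested, and CD74, the invariant chain, was read at 25.3 CPM in UM-SCC-047 against 1 count in the 3 libraries of UPCI-SCC-090. All 6 APOBEC3 cytidine deaminases tested were lower, among them APOBEC3B, the nuclear deaminase associated with mutation in HPV+ tumors, at 267, 281 and 238 CPM in the UM-SCC-047 libraries and 17.2, 29.3 and 26.2 CPM in the UPCI-SCC-090 libraries (log2 fold change −3.43 ± 0.24, edgeR adjusted p = 3e-05). APOBEC3G had 0 counts in UPCI-SCC-090 and 12.1 CPM in UM-SCC-047, at least 322-fold lower. The members of this cluster on chromosome 22 share much of their sequence.

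Cytokines, chemokines and their receptors had 7 higher and 26 lower of 37 tested. CXCL14, a chemokine of epithelial barriers, was among the higher members at 0.264, 0.135 and 0.0995 CPM in the UM-SCC-047 libraries and 229.6, 325 and 316 CPM in the UPCI-SCC-090 libraries (log2 fold change 10.67 ± 0.37). CXCR4, the receptor of CXCL12, had 0 counts in UM-SCC-047 beside 23.9 CPM in UPCI-SCC-090, at least 549.5-fold higher. TNFSF15, a TNF family cytokine, was read at 115 and 0.261 CPM, IL18 at 26.4 and 0.194 CPM, the oncostatin receptor OSMR at 272 and 35.3 CPM and the interleukin 1 receptor IL1R1 at 34 and 0.925 CPM, all lower. IL6 had 4.53 CPM in UM-SCC-047 and 0 counts in UPCI-SCC-090. The NF-kB list had 2 higher and 11 lower of 20 tested, where BIRC3 (24.8 and 0.354 CPM) and the feedback inhibitor TNFAIP3 (49.1 and 3.32 CPM) were lower and RELA did not pass (0.04). Its higher count became 6 without UPCI-SCC-090 replicate 1, and its lower count 7 without replicate 3. Surface proteins that are drug targets had 1 higher and 17 lower of 22 tested. CD274 (PD-L1) was read at 3.36 ± 1.03 CPM in UM-SCC-047 against 0.0977 ± 0.0671 CPM in UPCI-SCC-090, CD47 at 151 ± 20.7 CPM in UM-SCC-047 against 18.1 ± 6.44 CPM in UPCI-SCC-090 and the TNF family ligand CD70 at 24 and 0.0267 CPM, all lower, whereas CD276 (B7-H3) was higher at 127 ± 16.9 CPM in UM-SCC-047 against 248 ± 55.6 CPM in UPCI-SCC-090. Without UPCI-SCC-090 replicate 1 that list had 4 higher members, and 2 without replicate 2. NECTIN4 and NECTIN2 did not pass (0.43 and 0.24).

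Receptors and ligands of the EGFR family had 4 higher and 6 lower of 14 tested. EGFR itself, the receptor that drives many squamous carcinomas, was read at 956, 773 and 1029.7 CPM in the UM-SCC-047 libraries and 245, 113 and 107 CPM in the UPCI-SCC-090 libraries and was lower in all 3 UPCI-SCC-090 libraries (log2 fold change −2.57 ± 0.35, edgeR adjusted p = 7.4e-04; ENSG00000146648, chromosome 7 from 55086710 to 55279321 of GRCh37). Its ligand TGFA was lower (85.2 and 19.2 CPM), AREG did not pass (9.02 and 8.53 CPM), and neither did ERBB2 (0.05) or ERBB3 (0.02). LRIG1, which leads EGFR to degradation, was higher at 1.02, 0.9 and 0.895 CPM in the UM-SCC-047 libraries and 84, 109 and 93.2 CPM in the UPCI-SCC-090 libraries (log2 fold change 6.66 ± 0.24). Genes induced by ERK as feedback had 10 higher and 5 lower of 18 tested. The ETS factors ETV5 (6.08, 6.16 and 5.42 CPM in the UM-SCC-047 libraries and 125, 187 and 177 CPM in the UPCI-SCC-090 libraries) and ETV4 and the SPRY inhibitors SPRY1, SPRY2 and SPRY4 were higher, with log2 fold changes of 4.79 ± 0.23, 1.97 ± 0.26, 3.17 ± 0.22, 1.92 ± 0.20 and 2.08 ± 0.28. The phosphatase DUSP6 was higher (2.51 ± 0.24), but DUSP4 and DUSP5 were lower (−3.05 ± 0.25 and −3.30 ± 0.24). FOSL1, the AP-1 subunit FRA1, was lower at 41, 45.2 and 38 CPM in the UM-SCC-047 libraries and 2.75, 4.21 and 2.71 CPM in the UPCI-SCC-090 libraries (log2 fold change −3.68 ± 0.28, edgeR adjusted p = 3.7e-05).

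FGF receptors and ligands had 7 higher and 5 lower of 13 tested. FGFR2, a receptor of epithelium for mesenchymal FGFs, was read at 53.3, 54.6 and 50.6 CPM in the UM-SCC-047 libraries and 317, 294 and 288 CPM in the UPCI-SCC-090 libraries and FGFR1 at 12.5 and 35.8 CPM, both higher, and FGFR3 at 10.5 and 15.3 CPM, which did not pass. The ligand FGF2 was lower (20.9 and 2.09 CPM), as was the carrier FGFBP1 (153 and 38.5 CPM). The remaining receptor tyrosine kinases and ligands had 11 higher and 14 lower of 31 tested. AXL, a receptor associated with mesenchymal carcinoma cells, was read at 348, 382 and 309.7 CPM in the UM-SCC-047 libraries and 0.806, 1.04 and 1.39 CPM in the UPCI-SCC-090 libraries (log2 fold change −8.32 ± 0.28, edgeR adjusted p = 5.8e-06), and its ligand GAS6 at 157 ± 22.3 CPM in UM-SCC-047 against 5.44 ± 1.33 CPM in UPCI-SCC-090. MERTK, of the same receptor family as AXL, was higher instead, at 2.07 ± 0.161 CPM in UM-SCC-047 against 72.4 ± 5.11 CPM in UPCI-SCC-090. The neurotrophin receptors NTRK2 (19.1 and 150.3 CPM) and NTRK3 (0.0426 and 16 CPM) and the insulin receptor INSR (11.2 and 75.8 CPM) were higher. MET and IGF1R did not pass, with log2 fold changes of 0.58 ± 0.55 and 0.05 ± 0.15. Among Eph receptors and ephrins, which signal between neighboring cells, 9 were higher and 5 lower of 17. EPHA7 had 0 counts in UM-SCC-047 beside 29 CPM in UPCI-SCC-090, EPHB2 was lower at 144 and 0.497 CPM, EPHA2 was lower at 293 and 22.2 CPM, and EPHB4 was higher at 85.5 and 327 CPM.

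The WNT pathway, in which secreted WNT proteins act through Frizzled receptors and beta-catenin, had 21 higher and 11 lower of 40 tested (52.5% higher, median log2 fold change 0.93). Among ligands WNT5A, which acts mostly without beta-catenin, had 2 counts in UM-SCC-047 and was read at 0.0377, 0 and 0.0497 CPM in the UM-SCC-047 libraries and 92.7, 38.7 and 49.5 CPM in the UPCI-SCC-090 libraries. WNT2B and WNT3A were higher (2.72 and 34.6 CPM and 0.534 and 12.1 CPM), while WNT7A and WNT10A were lower (25 and 0.204 CPM and 21.2 and 0.882 CPM). Of the receptors, FZD8, FZD1 and FZD6 were higher, with log2 fold changes of 5.49 ± 0.30, 3.32 ± 0.18 and 2.70 ± 0.55, and FZD2 was lower (−1.36 ± 0.28). LEF1, the partner of beta-catenin on DNA, was read at 0.0755, 0.045 and 0.149 CPM in the UM-SCC-047 libraries and 33.4, 25.9 and 22.5 CPM in the UPCI-SCC-090 libraries, and AXIN2, its common target and inhibitor, at 0.189, 0.27 and 0.249 CPM in the UM-SCC-047 libraries and 9.13, 9.72 and 7.42 CPM in the UPCI-SCC-090 libraries. Both were above in every UPCI-SCC-090 library (log2 fold changes 8.20 ± 0.44 and 5.20 ± 0.31, edgeR adjusted p = 1e-05 and 1.5e-05). The targets NKD2, RNF43, ZNRF3 and NOTUM were higher as well (5.20, 2.32, 1.16 and 1.67). The secreted inhibitor DKK1 was read at 234, 255 and 249 CPM in the UM-SCC-047 libraries and 0.88, 0.608 and 1.97 CPM in the UPCI-SCC-090 libraries (log2 fold change −7.71 ± 0.46), and SFRP1 at 65.6 and 8.66 CPM, both lower, whereas DKK3 was higher (101 and 487 CPM).

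Notch genes had 11 higher and 3 lower of 22 tested. The receptors NOTCH1 and NOTCH3 were read at 29, 35.9 and 33.1 CPM in the UM-SCC-047 libraries and 137, 201 and 115 CPM in the UPCI-SCC-090 libraries and at 96.3, 113 and 91.5 CPM in the UM-SCC-047 libraries and 293, 488 and 344 CPM in the UPCI-SCC-090 libraries, and the ligand JAG1 at 82.9 and 310.4 CPM. These were higher by log2 fold changes of 2.21 ± 0.25, 1.90 ± 0.23 and 1.90 ± 0.16. Of the nuclear targets, HEY1 was read at 0.528, 0.135 and 0.298 CPM in the UM-SCC-047 libraries and 281, 303 and 302 CPM in the UPCI-SCC-090 libraries (log2 fold change 9.79 ± 0.40, edgeR adjusted p = 5.8e-06) and HEYL at 0.176 and 5.38 CPM, yet HES1 did not pass (69.5 and 63.6 CPM, log2 fold change −0.13 ± 0.16). DTX4, a Notch ubiquitin ligase, was lower (log2 fold change −3.14 ± 0.21). In the Hedgehog pathway 6 were higher and 2 lower of 11, with 1 lower without UPCI-SCC-090 replicate 3. The signal transducer SMO was read at 7.59, 7.96 and 6.22 CPM in the UM-SCC-047 libraries and 72.7, 112 and 104 CPM in the UPCI-SCC-090 libraries (log2 fold change 3.73 ± 0.25), the receptor PTCH1 at 25.4 and 66.6 CPM and the ligand SHH at 2.99 and 6.82 CPM. Of the transcription factors, GLI2 was lower (16.4 and 5.49 CPM) and GLI3 did not pass (0.19).

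**Figure D4:**
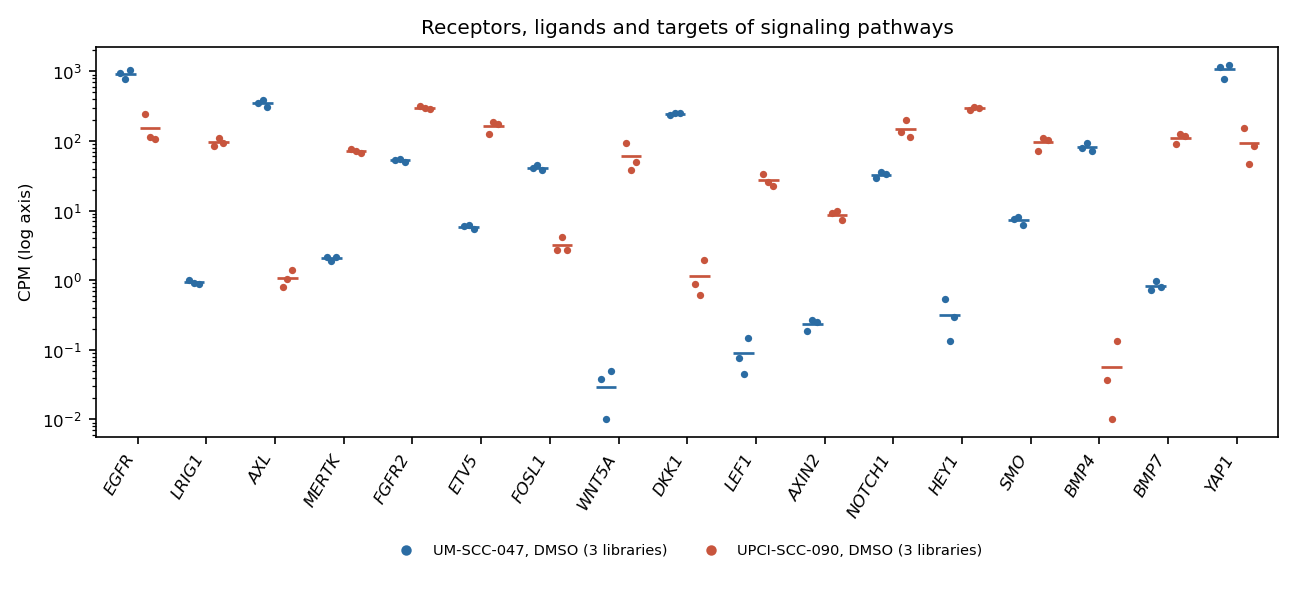
CPM (log axis, with values under 0.01 drawn at 0.01) of receptors, ligands and target genes of signaling pathways in each of the 6 libraries, colored by line, with the mean of each line as a bar. WNT5A, LEF1, AXIN2, HEY1, NOTCH1, SMO, ETV5 and FGFR2 are higher in the UPCI-SCC-090 libraries, and EGFR, AXL, DKK1, YAP1, BMP4 and FOSL1 lower.

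TGF-beta and BMP genes had 10 higher and 15 lower of 39 tested. BMP ligands were exchanged between the lines: BMP4 was read at 78.9, 92.4 and 70.7 CPM in the UM-SCC-047 libraries and 0.0367, 0 and 0.136 CPM in the UPCI-SCC-090 libraries and BMP7 at 0.717, 0.99 and 0.796 CPM in the UM-SCC-047 libraries and 91.7, 126 and 116 CPM in the UPCI-SCC-090 libraries, each abundant where the other was low. The receptor TGFBR2 was lower and TGFBR1 higher (log2 fold changes −3.32 ± 0.20 and 2.75 ± 0.62), and the signal transducer SMAD3 was lower (336 and 70.1 CPM). ID1, a target of BMP signaling, was lower and ID4 higher (418 and 136 CPM and 1.95 and 75.5 CPM). Targets and components of YAP, the effector of the Hippo pathway, had 2 higher and 12 lower of 21 tested, and the higher count was 5 without UPCI-SCC-090 replicate 1 and 1 without its replicate 3 or any 1 of the UM-SCC-047 libraries. YAP1 was read at 1174, 779 and 1246 CPM in the UM-SCC-047 libraries and 152, 47 and 84.2 CPM in the UPCI-SCC-090 libraries (log2 fold change −3.50 ± 0.45, edgeR adjusted p = 5.2e-04), and its target F3 (tissue factor) at 459 ± 24.3 CPM in UM-SCC-047 against 4.09 ± 0.946 CPM in UPCI-SCC-090. The best-known targets did not move together, since CCN1 was lower (145 and 41 CPM) and CCN2 higher (19.2 and 29.6 CPM), although CCN2 lost the call without UM-SCC-047 replicate 1, 2 or 3 or UPCI-SCC-090 replicate 3 (edgeR adjusted p = 0.12, 0.1, 0.15 and 0.063). Among partners of YAP on DNA TEAD2 was higher (2.46) and TEAD4 did not pass (28.2 and 27.2 CPM, log2 fold change −0.05 ± 0.24). AP-1 subunits had 6 higher and 5 lower of 16 tested. MAF, a factor of differentiation, was higher at 2.48 and 52.7 CPM, JUN was higher as well (log2 fold change 0.99 ± 0.20) and FOSL2 did not pass (−0.21 ± 0.16).

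Among metabolic genes, those of glycolysis were lower more often than higher, with 5 higher and 18 lower of 32 tested (median log2 fold change −0.82). LDHA, which turns pyruvate to lactate, was read at 3679, 3271 and 3334 CPM in the UM-SCC-047 libraries and 320.4, 342 and 405 CPM in the UPCI-SCC-090 libraries (log2 fold change −3.27 ± 0.17, edgeR adjusted p = 1e-05), while LDHB did not pass (−0.26). The lactate exporter SLC16A3 was read at 242 ± 39.2 CPM in UM-SCC-047 against 3.47 ± 1.14 CPM in UPCI-SCC-090, hexokinase HK2 at 145 ± 8.7 CPM in UM-SCC-047 against 7.99 ± 0.805 CPM in UPCI-SCC-090 and the glucose carrier SLC2A1 at 299 ± 35.1 CPM in UM-SCC-047 against 88 ± 20.2 CPM in UPCI-SCC-090, all lower. The mutase PGAM1, from the middle of the pathway, was lower as well (log2 fold change −1.62 ± 0.25). Without UPCI-SCC-090 replicate 3 the lower count was 11, and without replicate 1 the higher count was 8. Without UM-SCC-047 replicates 1 and 3 in turn the higher count was 2 and 3. Genes of the hypoxia response had 1 higher and 14 lower of 23 tested, and 2 higher without UPCI-SCC-090 replicate 2. EPAS1, the alpha subunit of HIF-2, was read at 307 ± 17.4 CPM in UM-SCC-047 against 16.9 ± 1.91 CPM in UPCI-SCC-090 and was lower, HIF1A was read at 85.2 ± 14.8 CPM in UM-SCC-047 against 229 ± 163 CPM in UPCI-SCC-090 and did not pass, and the target EGLN3 was lower at 33.1 and 1.38 CPM. LOXL2, a collagen crosslinking oxidase, fell from 465 to 1.06 CPM.

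Nuclear subunits of oxidative phosphorylation had 11 higher and 9 lower of 65 tested, and these counts depended on single libraries. Without UPCI-SCC-090 replicate 1 there were 35 higher, and without replicate 3 there was 1 lower. Without UM-SCC-047 replicate 1, 2 or 3 the lower count was 1, 2 or 2, and the higher count 7 without replicate 1 or 3. NDUFS7, a subunit of complex I, had the largest difference, at 24.2 ± 2.78 CPM in UM-SCC-047 against 87.1 ± 26.8 CPM in UPCI-SCC-090. Of the 13 mitochondrially encoded subunits 7 were lower, a count of 3 without any 1 of the UM-SCC-047 libraries or without UPCI-SCC-090 replicate 1, 11 without its replicate 2 and 1 without its replicate 3. MT-CO1 of complex IV was read at 11508, 12139 and 12109 CPM in the UM-SCC-047 libraries and 3506, 3858 and 3912 CPM in the UPCI-SCC-090 libraries. Mitochondrial transcripts in all made up 3.54 to 4% of the counts in UM-SCC-047 and 2.13 to 2.73% in UPCI-SCC-090.

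Lipid genes were mixed. Cholesterol synthesis had 10 higher and 3 lower of 25 tested, and 16 higher and 5 lower without UPCI-SCC-090 replicate 1 and 1 lower without UM-SCC-047 replicate 1. TM7SF2, a sterol reductase, was read at 8.06 ± 1.25 CPM in UM-SCC-047 against 30.7 ± 8.31 CPM in UPCI-SCC-090 and PMVK, the phosphomevalonate kinase, at 32.5 ± 4.94 CPM in UM-SCC-047 against 89.8 ± 27.7 CPM in UPCI-SCC-090, both higher, whereas FDFT1, which forms squalene, was lower (314 and 147 CPM). Fatty acid synthesis and lipid handling had 9 higher and 10 lower of 34 tested, and 14 higher without UPCI-SCC-090 replicate 1. FADS2 and SCD5, which place double bonds in fatty acids, were read at 28.1 and 338 CPM and 13.7 and 165 CPM, both higher, and FASN did not pass (0.50). ACSL5, which activates fatty acids, had 40.8 CPM in UM-SCC-047 and 4 counts in UPCI-SCC-090. PPARG, a nuclear receptor of lipids, was lower at 117, 121 and 119.8 CPM in the UM-SCC-047 libraries and 54.1, 54.5 and 54.9 CPM in the UPCI-SCC-090 libraries (log2 fold change −1.13 ± 0.14, edgeR adjusted p = 5.0e-04).

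NRF2 targets had 6 higher and 15 lower of 31 tested. AKR1C1 and AKR1C2, reductases of carbonyls and steroids with nearly the same sequence, were higher at 1.05 and 42.2 CPM and 0.581 and 71.8 CPM, and NQO1 and TXNRD1 were lower at 308 and 74 CPM and 427 and 88.2 CPM. NFE2L2 itself did not pass (55 and 53.4 CPM), and its repressor KEAP1 was higher (1.36 ± 0.23). Enzymes of aldehydes, retinoids and xenobiotics differed in most members, with 20 higher and 18 lower of 47 tested. Aldehyde dehydrogenases were exchanged: ALDH1A3 was read at 1564, 1511 and 1509 CPM in the UM-SCC-047 libraries and 8.61, 7.77 and 12.5 CPM in the UPCI-SCC-090 libraries and ALDH3A1 at 0.642, 0.585 and 0.547 CPM in the UM-SCC-047 libraries and 71.9, 118 and 101 CPM in the UPCI-SCC-090 libraries. Thus ALDH1A3 was lower and ALDH3A1 higher (log2 fold changes −7.31 ± 0.26 and 7.34 ± 0.31). The retinol receptor STRA6 was read at 132 and 0.27 CPM and the retinoid binding protein CRABP2 at 116 and 6.98 CPM, both lower. ADH7, an alcohol dehydrogenase of the upper digestive tract, had 0 counts in UM-SCC-047 beside 29 CPM in UPCI-SCC-090.

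Amino acid genes, many of them induced by the stress factor ATF4, had 8 higher and 19 lower of 40 tested. ASS1, which makes argininosuccinate from citrulline and is needed to form arginine, was read at 1288, 1337 and 1192 CPM in the UM-SCC-047 libraries and 5.94, 7.98 and 11.8 CPM in the UPCI-SCC-090 libraries (log2 fold change −7.21 ± 0.32, edgeR adjusted p = 7.2e-06). The glutamate carrier SLC1A3 was read at 1051, 909.7 and 1086 CPM in the UM-SCC-047 libraries and 9.49, 3.95 and 8.85 CPM in the UPCI-SCC-090 libraries, and SLC7A5, a carrier of large neutral amino acids, at 1312, 1607 and 1240.2 CPM in the UM-SCC-047 libraries and 23.7, 36.1 and 35.7 CPM in the UPCI-SCC-090 libraries. All were lower in each UPCI-SCC-090 library, whereas the serine and alanine carrier SLC1A4 was higher at 15.2 ± 1.68 CPM in UM-SCC-047 against 169.9 ± 35.9 CPM in UPCI-SCC-090. ATF4 (−0.93) and its target ASNS (−1.67) were lower as well. Without UPCI-SCC-090 replicate 1 the list had 14 higher members.

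E2F targets had 17 higher and 4 lower of 47 tested (median log2 fold change 0.39), and mitotic genes 9 higher and 2 lower of 56 tested (0.27). E2F1, which HPV E7 releases from RB, did not pass (46.1, 55.2 and 39.9 CPM in the UM-SCC-047 libraries and 35.2, 53.3 and 45.3 CPM in the UPCI-SCC-090 libraries; log2 fold change −0.08 ± 0.23), and E2F3 did not either (33.3 and 58 CPM, edgeR adjusted p = 0.065). E2F2 (1.76), the helicase subunit MCM2 (0.95) and the chromatin assembly factor CHAF1A (1.63) were higher, and PCNA and MKI67 did not pass (0.05 and −0.49). These counts moved with the libraries: higher E2F targets were 8, 10 or 8 without UM-SCC-047 replicate 1, 2 or 3 and 26 without UPCI-SCC-090 replicate 1, while higher mitotic genes ranged from 5 without UM-SCC-047 replicate 1 or 3 or UPCI-SCC-090 replicate 3 to 20 without UPCI-SCC-090 replicate 1, with 17 without its replicate 2. Lower E2F targets were 8 without UPCI-SCC-090 replicate 1, and lower mitotic genes 5 and 4 without its replicates 1 and 2.

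Cyclins, their kinases and inhibitors had 8 higher and 9 lower of 31 tested, shares near those of all genes. CCND1, the cyclin of the G1 phase, was read at 169, 171 and 150.4 CPM in the UM-SCC-047 libraries and 9.24, 8.81 and 8.17 CPM in the UPCI-SCC-090 libraries (log2 fold change −4.22 ± 0.17, edgeR adjusted p = 5.8e-06). Its kinase CDK6 was lower at 39, 30.7 and 44.1 CPM in the UM-SCC-047 libraries and 3.01, 0.608 and 1.73 CPM in the UPCI-SCC-090 libraries, while CDK4 was higher at 306, 312 and 263 CPM in the UM-SCC-047 libraries and 549, 996 and 979.6 CPM in the UPCI-SCC-090 libraries. MYC was lower at 118 ± 14.6 CPM in UM-SCC-047 against 33.7 ± 3.67 CPM in UPCI-SCC-090, whereas MYCL and MYCN were higher at 9.75 and 64.1 CPM and 0.152 and 15.6 CPM. CDKN2A, which encodes p16 and marks HPV+ tumors, did not pass (420.5, 502 and 388 CPM in the UM-SCC-047 libraries and 208, 400.0 and 389.6 CPM in the UPCI-SCC-090 libraries). BCL2, the founding inhibitor of apoptosis, was read at 1.13, 0.63 and 0.597 CPM in the UM-SCC-047 libraries and 104, 40.3 and 50.2 CPM in the UPCI-SCC-090 libraries (log2 fold change 6.34 ± 0.53, edgeR adjusted p = 5.9e-05), within a family of 2 higher and 7 lower of 16 tested whose higher count was 6 without UPCI-SCC-090 replicate 1. HRK, a killer protein of that family, fell from 29.2 to 0.142 CPM.

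HOX genes, which give cells their position along the body axis, had 12 higher and 18 lower of 35 tested, and 30 of 35 thus passed in 1 direction or the other beside 48.0% of all genes tested. HOXB3 and HOXB4 were higher, at 0.264, 0.36 and 0.348 CPM in the UM-SCC-047 libraries and 45.9, 48 and 41.7 CPM in the UPCI-SCC-090 libraries and at 0.325 and 20.7 CPM, although their neighbor HOXB9 was lower at 6.69 and 0.0258 CPM. HOXD10 and HOXD11 were lower, at 18.8 and 0.0986 CPM and 19.1 and 0.242 CPM, and HOXD13 had 8.24 CPM in UM-SCC-047 and 0 counts in UPCI-SCC-090. In the HOXC cluster, HOXC13, a factor of hair and nails, was lower (134 and 9.86 CPM) and HOXC10 higher (1.21 and 6.3 CPM). Further homeobox and developmental factors had 19 higher and 27 lower of 63 tested. GATA3, a factor of luminal and epidermal cells, was read at 59.4, 62.7 and 62.6 CPM in the UM-SCC-047 libraries and 0.403, 0.391 and 0.509 CPM in the UPCI-SCC-090 libraries (log2 fold change −7.12 ± 0.26, edgeR adjusted p = 5.8e-06), and the RNA-binding oncofetal protein IGF2BP1 at 62.8 and 0.0773 CPM, both lower. SOX21 (0.99 and 111 CPM), DLX5 (0.766 and 72 CPM) and BARX1 (6.23 and 119.6 CPM), which act in the oral and foregut epithelium and the jaw, were higher.

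Imprinted genes had 2 higher and 6 lower of 15 tested, with PEG10, a gene derived from a retrotransposon, higher at 1.28 and 58.3 CPM and the maternally active NLRP2 lower at 78.4 and 0.13 CPM. The higher count was 4 without UPCI-SCC-090 replicate 1 or 2 and 1 without its replicate 3 or any 1 of the UM-SCC-047 libraries. Only 5 cancer-testis antigens reached the level for testing, and MAGEA3 (0, 0 and 0 CPM in the UM-SCC-047 libraries and 47, 61.5 and 59.2 CPM in the UPCI-SCC-090 libraries) and PRAME (0.226, 0 and 0 CPM in the UM-SCC-047 libraries and 50.7, 64.4 and 61.2 CPM in the UPCI-SCC-090 libraries) were higher. MAGEA3 had 0 counts in UM-SCC-047 and was at least 1279-fold higher. Among meiotic genes (5 higher and 4 lower of 13 tested) the cohesin subunit REC8 was higher at 2.05 and 195 CPM and MEI1 at 0.259 and 24.9 CPM, and the lower count was 2 without UM-SCC-047 replicate 1 or 3 or UPCI-SCC-090 replicate 3. Polycomb and DNA methylation genes had 9 higher and 3 lower of 24 tested. CBX2 and BMI1, subunits of polycomb complex 1, were higher (log2 fold changes 3.20 ± 0.24 and 2.60 ± 0.52) and the demethylase KDM6A was lower (−1.96 ± 0.47), but the higher count was 3, 5 or 4 without UM-SCC-047 replicate 1, 2 or 3. MEPCE, which holds the elongation factor P-TEFb inactive, was higher (log2 fold change 1.28 ± 0.22).

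Cytosolic ribosomal proteins had 3 higher and 25 lower of 78 tested (median log2 fold change −0.40). Their share of all counts was 6.61 to 6.99% in UM-SCC-047 and 4.58 to 6.26% in UPCI-SCC-090, and the higher count rose to 20 without UPCI-SCC-090 replicate 1. Of genes that are often altered in HNSCC 6 were higher and 15 lower of 42. PIK3CA (18.3 and 62.6 CPM), FAT1 (245 and 133 CPM) and NSD1 (167 and 120.3 CPM) did not pass, ANO1 of the 11q13 amplicon was lower (31 and 1.23 CPM), and without UPCI-SCC-090 replicates 1 and 2 in turn the higher count was 10 and 11. CD44, a surface marker of tumor-initiating cells in HNSCC, was read at 557, 517 and 554 CPM in the UM-SCC-047 libraries and 139, 103 and 93.8 CPM in the UPCI-SCC-090 libraries and was lower (log2 fold change −2.28 ± 0.19, edgeR adjusted p = 6.6e-05).

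A group of genes was read in 1 line and not in the other, with at least 5 CPM in each library of the one and at most 3 counts over the 3 libraries of the other. There were 43 such genes in UPCI-SCC-090, 14 of them with 0 counts in UM-SCC-047, and 85 in UM-SCC-047, 22 of them with 0 counts in UPCI-SCC-090. In UPCI-SCC-090 the most abundant were FEZF1, a repressor of the developing forebrain and olfactory system, at 81.6 CPM beside 3 counts in UM-SCC-047, the axonal motor KIF1A at 72 CPM beside 3, and C3orf14 at 67.7 CPM beside 2. WNT5A, MAGEA3, VCAN, EPHA7, ADH7 and SERPINB11 belonged to them too. In UM-SCC-047 they were led by ALPG, a germ cell alkaline phosphatase close in sequence to the placental form, at 113 CPM beside 2 counts in UPCI-SCC-090, the interferon-induced chaperone RTP4 at 61.2 CPM beside 2, and KLK6 at 59.7 CPM beside 3. Among genes with 0 counts in UPCI-SCC-090, the neuropeptide GAL was at least 507-fold lower, with 18.9 CPM in UM-SCC-047. The gastrokine GKN2, a protein of the stomach lining, was at least 460.3-fold lower, with 17.2 CPM.

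The promoters of these genes were described by their CpG content, without a test. A promoter was counted as rich in CpG where it had at least 50% GC and an observed over expected CpG ratio of at least 0.6. Such promoters made up 6188 of 7174 (86.3%) for genes of at least 5 CPM in all 6 libraries, 20 of 31 (64.5%) for genes read only in UPCI-SCC-090 and 21 of 51 (41.2%) for those read only in UM-SCC-047, and 78.8% of the 11049 tested genes with a promoter. The leading gene of each line is printed as an example, in the same window as above and with each CG in capitals.
FEZF1 (chr7:122304701-122305000, minus strand): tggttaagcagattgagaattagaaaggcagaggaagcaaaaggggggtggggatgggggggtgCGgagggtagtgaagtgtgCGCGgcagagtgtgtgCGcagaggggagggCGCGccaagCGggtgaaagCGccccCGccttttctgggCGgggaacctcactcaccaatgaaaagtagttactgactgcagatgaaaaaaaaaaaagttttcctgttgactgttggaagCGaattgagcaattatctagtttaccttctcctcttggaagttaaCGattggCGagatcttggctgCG
ALPG (chr2:232406594-232406893, plus strand): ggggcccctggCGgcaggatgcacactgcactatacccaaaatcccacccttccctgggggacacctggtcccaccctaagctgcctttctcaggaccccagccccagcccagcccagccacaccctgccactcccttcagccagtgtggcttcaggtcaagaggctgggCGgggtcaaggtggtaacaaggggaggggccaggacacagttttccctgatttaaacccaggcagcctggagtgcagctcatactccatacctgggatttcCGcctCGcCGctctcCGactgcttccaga
The window of FEZF1 held 14 CG and a ratio of 0.784, that of ALPG 6 CG and a ratio of 0.212. Methylation was not measured in these libraries.

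The differences between the lines were compared with those in the JQ1 libraries, which the comparison had not used. There 1838 of 13303 genes (13.8%) were higher in UPCI-SCC-090 and 2393 (18.0%) lower. Of 13157 genes tested with either treatment, 6141 were called with DMSO and 4151 with JQ1, and 3481 were called in both with the same sign, which is 56.7% of the DMSO calls and 83.9% of the JQ1 calls. A further 55 were called with opposite signs, KRT13 and KRT4 among them. Interferon-stimulated genes had 0 higher and 33 lower of 40 tested with JQ1, MHC class I genes 0 higher and 16 lower of 19 tested, kallikreins 0 higher and 6 lower of 6 tested and matrix proteases 3 higher and 21 lower of 27 tested. The squamous transcription factors had 11 higher and 4 lower of 23 tested, and TP63 passed there, at 46.5 and 198 CPM (log2 fold change 2.09 ± 0.55, edgeR adjusted p = 0.021), although the change of the difference with treatment did not (edgeR interaction 1.64, adjusted p = 0.23). Of the genes read in 1 line, 43 of 43 for UPCI-SCC-090 and 84 of 85 for UM-SCC-047 had the same direction of mean CPM with JQ1. A mean of at least 5 CPM with JQ1 remained for 22 of the 43 and 44 of the 85. ADH7, SERPINB11 and VCAN were read at 1.13, 0.649 and 0.658 CPM in UPCI-SCC-090 with JQ1. Direction alone is a weak check, since these genes were chosen for having almost no counts in the other line.

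Along the genome the differences were unevenly placed. The median log2 fold change of chromosome arms ranged from −1.04 on 5p, where 60 of 109 genes tested (55%) were lower, to 0.591 on 19p, where 209 of 460 (45.4%) were higher. On 10q the median was −0.713, on 11p −0.691, on 7p −0.688, and on 13q and 22q −0.603, while it was 0.519 on 8q and 0.42 on 1q. Genes of 5p with large differences were ADAMTS12, a metalloprotease of the matrix with 7.66 CPM in UM-SCC-047 and 0 counts in UPCI-SCC-090, and FYB1, an adaptor protein, at 28.6 and 0.0113 CPM. Of the arms named here, 3 had medians that moved by more than 1.5 times without a single library: 19p was 0.917 without UPCI-SCC-090 replicate 1, 22q was −0.308 without the same library, and 13q was −0.36 without UPCI-SCC-090 replicate 2. In the JQ1 libraries the median of 5p was −1.07 and that of 10q −0.674. DNA copy number was not analysed here.

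**Figure D5:**
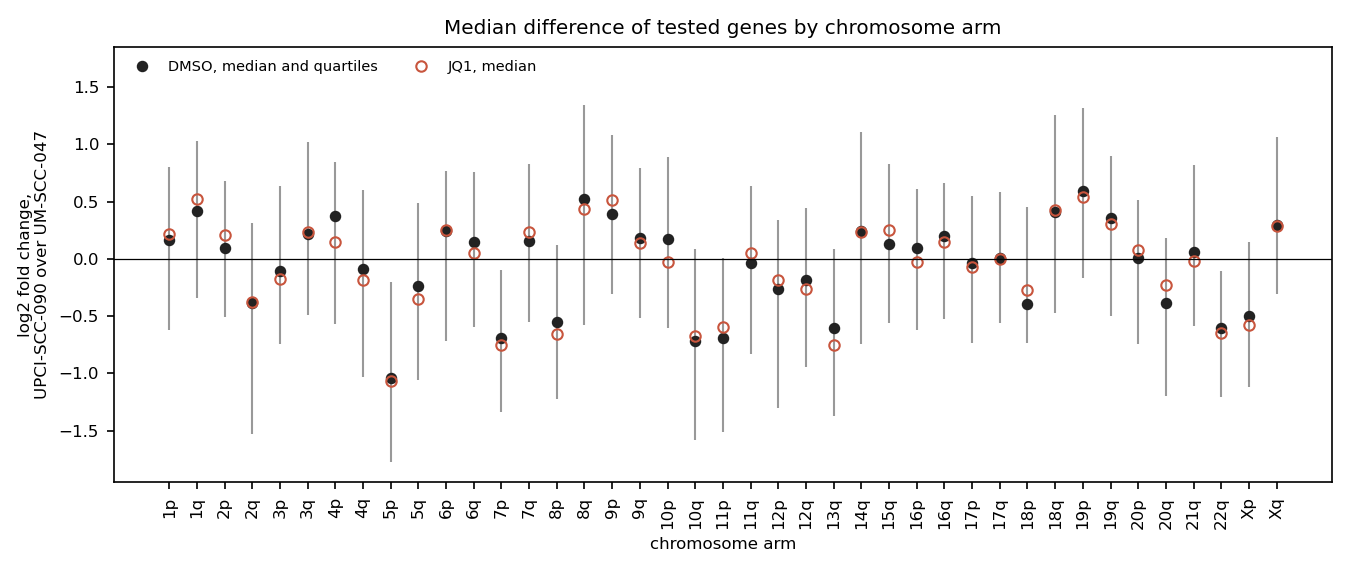
Median log2 fold change of UPCI-SCC-090 over UM-SCC-047 for the tested genes of each chromosome arm, with DMSO (filled) and with JQ1 (open), and lines from the lower to the upper quartile of the genes with DMSO. With DMSO the medians run from −1.04 on 5p to 0.591 on 19p.

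In windows of 25 neighboring tested genes, of which there were 13289, the 5th and 95th percentiles of the median log2 fold change were −0.965 and 0.788. The lowest median, −2.96, belonged to a stretch of chromosome 21 from 40.7 to 45.1 Mb with 13 of 25 genes lower, MX1 and MX2 (30.8 and 0.204 CPM) among them. Next came a stretch of chromosome 10 from 89.1 to 93.4 Mb (−2.38, 16 of 25 lower), which holds IFIT3, IFIT1 (55.2 and 0.998 CPM), ACTA2 and FAS. On chromosome 22 from 35.8 to 38 Mb 19 of 25 genes were lower (−2.33). Windows of genes higher in UPCI-SCC-090 lay mostly on chromosome 19, with a median of 1.6 from 1.26 to 1.93 Mb and 19 of 25 genes higher. In the JQ1 libraries the median was −0.656 for the stretch of chromosome 21 and −1.32 for that of chromosome 10. It was −4.04 for the stretch of chromosome 22 and 1.03 for that of chromosome 19. Coordinates of these stretches are those of GRCh37.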

How the data were processed

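RNA of both lines was extracted with a mirVana kit, made into stranded libraries after depletion of ribosomal RNA, and each repeat was sequenced on 2 lanes. The deposited table holds estimated counts per gene that the authors made with Salmon (version 0.8.2 in the submitters' processing notes); they are not normalized, and the sources used here do not name the index. After rounding to integers they were tested with the quasi-likelihood test of edgeR 4.0.16 in R 4.3.3, on the 6 DMSO libraries alone, after TMM scaling and a filter of 10 counts per gene at the library sizes (total at least 15), with Benjamini-Hochberg adjustment over the 14108 genes tested and a threshold of 0.05. The JQ1 libraries were tested the same way, and a term for line by treatment was tested with all 12 libraries in the same model. A line with 0 counts was set at 3 counts over its 3 libraries for a lower bound of the fold change, which covers counting error only.

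Genes named in the text were up to 15 per direction by size of the difference, up to 5 per list and direction, up to 12 read in 1 line only, a fixed set of lineage and signaling genes, and genes of the regions described; further members were named for their place in a pathway with their values seen. The compared libraries and the lists were chosen with earlier results of these data known. Genes of the Y chromosome and XIST, and some other genes, are not reported here. Gene models came from GENCODE 44 on GRCh37, which held 20015 of 20738 identifiers, and promoter sequences from RefSeq. Alternatives were other scalings and filters, DESeq2 1.42.0, 1 fit over 12 libraries, a replicate block, a GC correction and leaving out each library; leaving out the libraries with the steepest GC trends was added after the data were seen. The fitting step was tested on simulated data.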

Additional observations from a re-analysis of the deposited data

Results flagged for a closer look

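The difference between the lines was tested for change with treatment by the interaction of line and treatment in edgeR over all 12 libraries, adjusted over all genes. It passed for 81 of 318 named genes, and the 15 of them whose difference had the opposite sign with JQ1 are given here, with KRT15, whose JQ1 levels the report gives. The named genes were chosen largely for their difference with DMSO, and the DMSO libraries enter the interaction too. Without the share over all genes, the count of 81 does not show how common such changes are. The JQ1 value was not required to pass or to reach a given size. An opposite sign can therefore be a lost difference, as for SLC2A1 at 0.01 with JQ1. Each value is the log2 fold change with JQ1 minus that with DMSO, and the DMSO and JQ1 values come from the separate fits. The DMSO and JQ1 fits share no library, and the causes were not tested.

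Among keratins and genes of differentiation the edgeR interaction was 9.01 for KRT13 (−3.32 with DMSO, 5.70 with JQ1, adjusted p = 8.6e-07), 9.06 for KRT4 (−3.32 with DMSO, 5.76 with JQ1, adjusted p = 8.6e-06) and 4.28 for KRT15 (0.18 with DMSO, 4.47 with JQ1, adjusted p = 8.6e-05). It was 8.21 for S100A9 (−5.72 with DMSO, 2.48 with JQ1, adjusted p = 0.00035), 2.98 for TGM1 (−2.24 with DMSO, 0.75 with JQ1, adjusted p = 0.0049) and 5.79 for CRABP2 (−4.06 with DMSO, 1.74 with JQ1, adjusted p = 4.6e-05). Apart from KRT15 these genes were kept for an opposite sign with JQ1, so the direction of their interaction follows from that choice. Other keratins passed the interaction in both directions without changing sign. It was negative for KRT18 (−3.13), KRT8 (−2.30), KRT80 (−1.75) and KRT14 (−1.64). It was positive for KRT16 (5.39), KRT6B (3.81), KRT6A (2.04) and KRT5 (1.96).

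Among matrix and signaling genes the edgeR interaction was −4.65 for FBN1 (3.70 with DMSO, −0.99 with JQ1, adjusted p = 0.00028), −3.14 for MMP14 (1.32 with DMSO, −1.80 with JQ1, adjusted p = 0.003) and 3.69 for FGFBP1 (−1.99 with DMSO, 1.68 with JQ1, adjusted p = 0.00031). It was −2.99 for FGFR1 (1.51 with DMSO, −1.46 with JQ1, adjusted p = 0.0041), −2.80 for NOTUM (1.67 with DMSO, −1.12 with JQ1, adjusted p = 0.01) and 2.78 for ID1 (−1.62 with DMSO, 1.17 with JQ1, adjusted p = 0.0044) in receptors and targets of signaling. The remaining edgeR values were −3.68 for CCN2 (0.63 with DMSO, −3.06 with JQ1, adjusted p = 1.1e-05), −1.71 for JUN (0.99 with DMSO, −0.71 with JQ1, adjusted p = 0.025), −2.90 for FASN (0.50 with DMSO, −2.38 with JQ1, adjusted p = 0.035) and 1.76 for SLC2A1 (−1.76 with DMSO, 0.01 with JQ1, adjusted p = 0.02). Of these CCN2 was a call with DMSO that was lost without single libraries, and FASN did not pass with DMSO.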

How the results depend on the processing

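The counts of 3207 higher and 3571 lower genes kept within 1.5 times under each alternative run. Leaving out 1 library gave 2209 to 4770 higher genes, 2670 to 3932 lower genes and 4716 to 6135 genes at least 2-fold apart. Scaling by library size alone moved the median log2 fold change of all genes to 0.127, the fit over all 12 libraries to 0.155, the lack of a filter to 0.105 and leaving out UPCI-SCC-090 replicate 1 to 0.106. A minimum count of 50 moved it to 0.222 and the share of higher genes among those called from 47.3% to 59.2% (3652 higher, 2513 lower). DESeq2 called 3319 higher and 3412 lower, and the GC correction 4527 and 4490. The correlations of the deviations of same-numbered libraries were 0.058, 0.32 and −0.073, beside −0.47 to 0.53 for libraries of different numbers. With so few and so spread values, whether the replicate numbers pair the libraries cannot be decided. With the replicate number as a block 2871 genes were higher, 3600 lower and 5258 at least 2-fold apart, and with the GC correction and the replicate block 4186, 4316 and 5458. Without UPCI-SCC-090 replicates 1 and 2, which leaves 1 library of that line assumed to vary like the others, 4736 were higher and 4323 lower. ITGAV, which did not pass, had a log2 fold change of −0.40 under the GC correction with the replicate block; the cause was not tested. Of 268 named genes that were called, 262 passed in every alternative and 4 lost the call without at least 1 library. Named genes were chosen largely for the size of their difference and do not stand for all calls. Of all 6778 calls, 72.5% were kept without UM-SCC-047 replicate 1 and 74.1% without its replicate 3. Without UPCI-SCC-090 replicate 3, 76.0% were kept. The highest share without 1 library was 95.8%, without UPCI-SCC-090 replicate 2. Calls were also gained among the named genes that did not pass. Of these, 23 passed without UPCI-SCC-090 replicate 1, 7 without its replicate 2 and 16 with the GC correction. A gene that did not pass is therefore not shown to be equal between the lines. Genes of few counts have wide errors, and 3 libraries per line limit every call.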
